A study of Mus musculus with 10 samples.

Results

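The genes of the presynaptic vesicle and of the SNARE fusion machinery were followed in mouse primary cortical neurons treated with lactacystin, an inhibitor of the proteasome. Members were taken by gene symbol: those whose platform symbol began with Syt, Stx, Vamp, Cplx, Sv2 or Rab3, those where a digit came straight after Snap or Syn, and Syp, Syngr1, Nsf, Napa, Napb, Unc13a, Rph3a, Slc17a6, Slc17a7, Slc32a1, Gad1 and Gad2. This gave 73 probe sets of 57 genes among the 12488 probe sets of the larger array design. No member probe set carried an Sv2, Unc13a, Rph3a, Slc17a6 or Slc17a7 symbol, and Syn2 was the only synapsin. First letters also brought in genes that are not synaptic by name alone, such as Rab31, Rab33a, Rab34 and Rab35, the syntaxin-binding proteins, and Snap91, a clathrin adaptor.

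All 4 groups were neocortical cultures from foetuses of Swiss albino mice at gestation day 15 or 16. The tested cultures received 1 µM lactacystin on day 5 in vitro, diluted from a DMSO stock into serum-free medium, for 24 h or 48 h, with 3 arrays at each time. The controls of 24 h and 48 h had 2 arrays each. The labels do not say whether controls received the solvent, whether foetuses were pooled or whether each replicate was a culture of its own, and a p-value therefore measures the spread between these arrays alone, which may be technical. The RNA was read on 2 Affymetrix designs. Lactacystin replicate 1 at 24 h, lactacystin replicate 3 at 48 h and control replicate 1 at each time were on U74A, and the other 6 arrays were on its revision U74Av2. Any difference of culture or processing that went with the design cannot be told apart from it. Values are scaled signals, the array's summary brightness of a probe set on a linear scale, and array values below are given with the U74A array named. Signals of different probe sets are not comparable as transcript levels.

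Transmitter release works by membrane fusion. A SNARE on the vesicle (Vamp2) zips together with SNAREs of the plasma membrane (Stx1a and Snap25), synaptotagmins sense the calcium that triggers the last step, complexins hold the complex ready, and Nsf with its SNAP adaptors (Napa, Napb) takes the spent complex apart. Other syntaxins and Vamps do the same work at the Golgi, endosomes and the non-synaptic cell surface, and Rab GTPases direct vesicles to each of these membranes. In cortical neurons the synaptic set is used by both glutamate and GABA terminals, and Slc32a1, Gad1 and Gad2 mark the GABA ones.

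Of the 73 probe sets, 58 (48 genes) had values on both designs, and 45 of these (40 genes) passed the filter on low signal and were tested among 6984 probe sets with limma. A call is an adjusted p under 0.05 over all of them. At 24 h 10 of the 45 members were called, 4 higher and 6 lower in lactacystin cultures. That is 22.2%, against 14.9% of all tested probe sets (8.20% higher and 6.66% lower). At 48 h 12 members were called, 5 higher and 7 lower, or 26.7%, against 10.3% of all (6.77% higher and 3.57% lower). With both times averaged, 15 members were called, 5 higher and 10 lower, against 21.1% of all (12.0% higher and 9.08% lower). The 10 lower ones were Stx1a, Snap47, both Vamp2 probe sets, Syt5, Cplx1, Cplx2, Snap91, Rab33a and Slc32a1, and the 5 higher ones Stx4a, Vamp3, Stx5a, Stxbp3 and Rab31. The calls of 24 h and 48 h shared 6 probe sets: Stx1a, Vamp2 and Rab33a fell at both times, and Stx4a, Vamp3 and Stxbp3 rose at both. That is 13.3% of the 45, against 4.52% of all tested probe sets called at both times in the same direction.

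The members as a group sat a little below the rest of the arrays. Their median log2 change was -0.15 at 24 h and -0.16 at 48 h, against -0.03 and 0.04 over all tested probe sets. The split at 48 h depended on the scaling. When arrays were scaled on their medians, the median of all probe sets moved to -0.11 and the members' median to -0.29. Of the 45 members 2 were then higher and 12 lower, and of all 6984 tested probe sets 286 were higher and 637 lower. The share of higher calls among all calls at 48 h then was 31.0%, against 65.5% as reported, and over both times 40.0%, against 57.0%. Relative to all probe sets the members' median stayed at -0.18 with median scaling, against -0.20 as reported. The ranges of the arrays did not overlap for 15 members at 24 h (33.3%, against 36.2% of all) and for 13 at 48 h (28.9%, against 26.5% of all), so separation of the ranges was about as common among members as elsewhere.

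**Figure D1:**
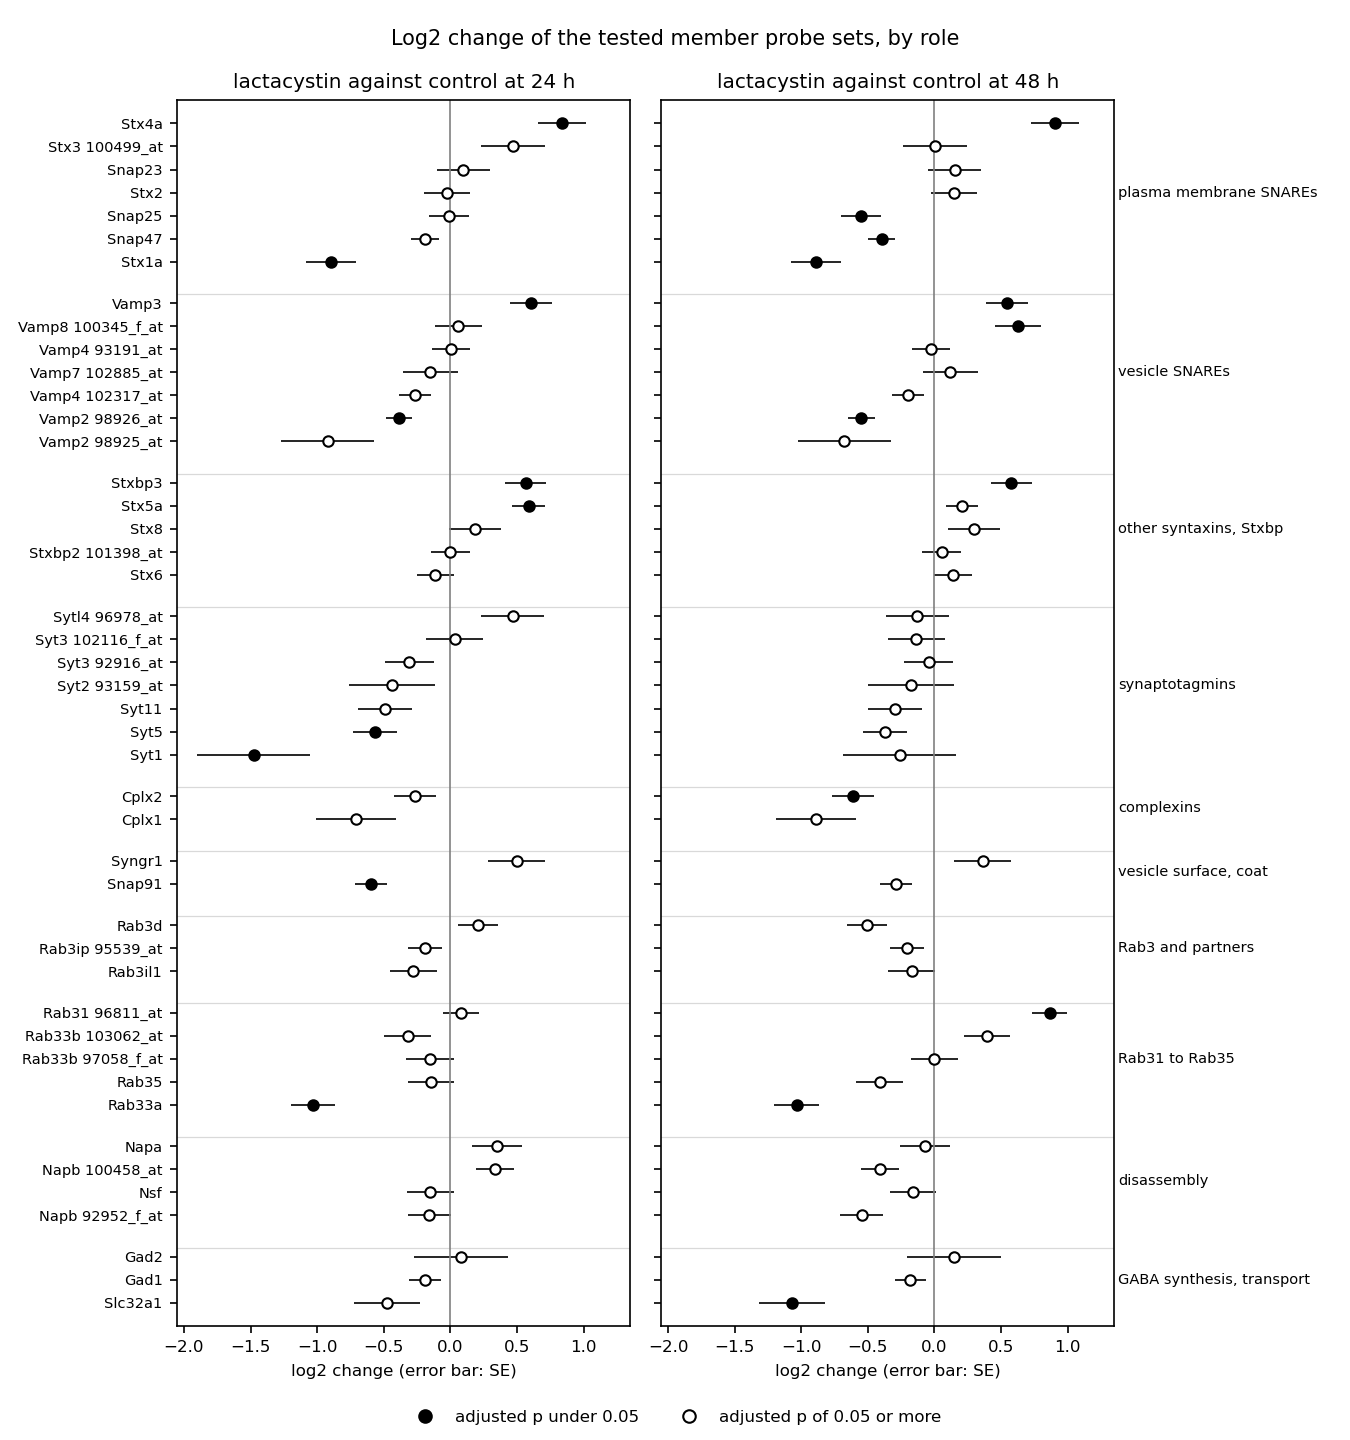
Log2 change (x axis) of the 45 tested member probe sets at 24 h (left) and 48 h (right), lactacystin against control, with SE as bars and filled points for an adjusted p under 0.05. Stx4a, Vamp3 and Stxbp3 lie to the right and Stx1a, Rab33a and the Vamp2 probe set 98926_at to the left in both panels, and most open points lie near 0.

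Among the SNAREs of the plasma membrane, the synaptic and the general surface syntaxin went in opposite directions. Stx1a, the syntaxin of the nerve terminal, had signals of 708 (U74A), 435 and 462 in lactacystin cultures at 24 h, against 1258 (U74A) and 969 in controls. After 48 h it had 1089 (U74A), 387 and 453 under lactacystin, against 1667 (U74A) and 880 in controls. Every treated array was below the control of its own design, although the U74A array under lactacystin at 48 h lay above the U74Av2 control. Stx1a fell by 0.90 ± 0.19 on the log2 scale at 24 h (SE, adjusted p = 0.00834) and by 0.89 ± 0.19 at 48 h (adjusted p = 0.0125). Its call ended without control replicate 2 at 24 h (log2 change -0.58, adjusted p = 0.199) and, at 48 h, without control replicate 1 or 2 (adjusted p = 0.103 and 0.101).

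Stx4a, a surface syntaxin used in secretion outside the synaptic vesicle cycle, had 556 (U74A), 458 and 445 under lactacystin at 24 h, against 320 (U74A) and 227 in controls. At 48 h the values were 526 (U74A), 465 and 539 under lactacystin, against 384 (U74A) and 188 in controls. The groups did not overlap at either time. Stx4a rose by 0.84 ± 0.18 at 24 h (adjusted p = 0.00896) and by 0.91 ± 0.18 at 48 h (adjusted p = 0.00879). Without control replicate 1 or 2 at 24 h its adjusted p there was 0.0524 and 0.116, and without control replicate 2 at 48 h the change was 0.55 (adjusted p = 0.166).

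Snap25, the plasma membrane partner of Stx1a in nerve terminals, had 1822 (U74A), 2499 and 2181 under lactacystin at 24 h, against 1902 (U74A) and 2305 in controls, and these groups overlapped. The 48 h arrays had 1991 (U74A), 2326 and 1716 under lactacystin, against 2379 (U74A) and 3423 in controls, with every treated array below both controls. It changed by -0.01 ± 0.15 at 24 h (95% interval -0.34 to 0.32, adjusted p = 0.983) and fell by 0.55 ± 0.15 at 48 h (adjusted p = 0.0381). The 2 controls differed more at 48 h than the treated arrays did, and without control replicate 2 the change was -0.39 (adjusted p = 0.371). The call at 48 h also ended without lactacystin replicate 2 at 48 h, control replicate 1 at 48 h, lactacystin replicate 2 or 3 at 24 h or either control of 24 h (adjusted p of 0.0539 to 0.0771).

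Snap47, a broadly expressed relative of Snap25, had 3789 (U74A), 3506 and 3682 under lactacystin at 24 h, against 3852 (U74A) and 4513 in controls. In 48 h cultures it had 3799 (U74A), 3677 and 3441 under lactacystin, against 4593 (U74A) and 4984 in controls. The treated arrays lay below the controls at both times, but only the 48 h change of -0.40 ± 0.10 passed (adjusted p = 0.0320, against 0.240 at 24 h). That call ended without lactacystin replicate 2 or 3 at 24 h, lactacystin replicate 1 or 2 at 48 h, or either control of 48 h (adjusted p of 0.0505 to 0.277). Snap23, the general counterpart of Snap25, changed by 0.10 ± 0.20 at 24 h and 0.15 ± 0.20 at 48 h, and the surface syntaxins Stx2 and Stx3 (100499_at) changed by -0.02 to 0.47, none of them past the threshold.

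The vesicle SNAREs also held members of both directions. Vamp2, the SNARE of synaptic vesicles, was read by 2 probe sets. On 98926_at it had 3077 (U74A), 3509 and 3567 under lactacystin at 24 h, against 4168 (U74A) and 4615 in controls, and at 48 h 3404 (U74A), 3240 and 3082 under lactacystin, against 4575 (U74A) and 4851 in controls. All treated arrays were below all controls, with little spread in any group. Vamp2 fell by 0.39 ± 0.10 at 24 h (adjusted p = 0.0234) and by 0.55 ± 0.10 at 48 h (adjusted p = 0.00588). At 24 h the adjusted p was between 0.0527 and 0.217 when any 1 of the 5 arrays of that time was left out, and at 48 h it was 0.0554 and 0.0779 without control replicate 1 and 2.

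The other Vamp2 probe set, 98925_at, differed far more between the designs than between the groups. It had 359 (U74A), 29.8 and 26.6 under lactacystin at 24 h, against 544 (U74A) and 121 in controls. By 48 h its arrays had 587 (U74A), 7.15 and 48.6 under lactacystin, against 851 (U74A) and 56.0 in controls. Within each design the treated arrays were below the control. Its log2 changes of -0.92 ± 0.35 and -0.68 ± 0.35 did not pass at either time (adjusted p = 0.104 and 0.264), and over both times the fall of 0.80 ± 0.25 passed (adjusted p = 0.0406). That call ended without control replicate 2 at 24 h (-0.45, adjusted p = 0.318) and without any lactacystin array of 24 h or either control of 48 h (adjusted p of 0.0539 to 0.151).

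Vamp3, a vesicle SNARE of recycling endosomes found in most cells, had 615 (U74A), 520 and 513 under lactacystin at 24 h, against 331 (U74A) and 358 in controls. At 48 h it had 444 (U74A), 548 and 637 under lactacystin, against 324 (U74A) and 384 in controls. No treated array overlapped a control at either time. Vamp3 rose by 0.60 ± 0.16 at 24 h (adjusted p = 0.0253) and by 0.55 ± 0.16 at 48 h (adjusted p = 0.0494). The 24 h call ended without lactacystin replicate 1 (adjusted p = 0.103) or control replicate 1 or 2 (adjusted p = 0.108 and 0.187). At 48 h it ended when any array was left out except lactacystin replicate 1 at 24 h or replicate 3 at 48 h (adjusted p of 0.0675 to 0.232).

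Vamp8, an endosomal SNARE, was read by the probe set 100345_f_at, whose suffix marks probes that match several related sequences, so its identity is uncertain, as for every probe set here with that suffix. At 24 h it had 296 (U74A), 162 and 192 under lactacystin, against 269 (U74A) and 169 in controls, which overlap. After 48 h it had 351 (U74A), 229 and 332 under lactacystin, against 231 (U74A) and 164 in controls, and 1 treated array was level with the U74A control. It rose by 0.63 ± 0.17 at 48 h (adjusted p = 0.0429, against 0.855 at 24 h), a call that ended when any array was left out except lactacystin replicate 1 of either time (adjusted p of 0.0521 to 0.191). Its other probe set, 93305_f_at, was under the filter and not tested. It had 131 (U74A), 99.2 and 77.2 under lactacystin at 48 h, against 21.1 (U74A) and 24.3 in controls.

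The remaining tested vesicle SNAREs did not pass. Vamp4, a SNARE of the trans-Golgi network, changed by -0.27 ± 0.12 and 0.00 ± 0.14 at 24 h on its 2 probe sets and by -0.20 ± 0.12 and -0.03 ± 0.14 at 48 h. Vamp7, a SNARE of late endosomes, changed by -0.15 ± 0.21 at 24 h and 0.12 ± 0.21 at 48 h. Of the 7 tested vesicle SNARE probe sets, 1 rose and 1 fell at 24 h, and 2 rose and 1 fell at 48 h. Of all tested probe sets, 8.20% rose and 6.66% fell at 24 h, and 6.77% rose and 3.57% fell at 48 h.

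**Figure D2:**
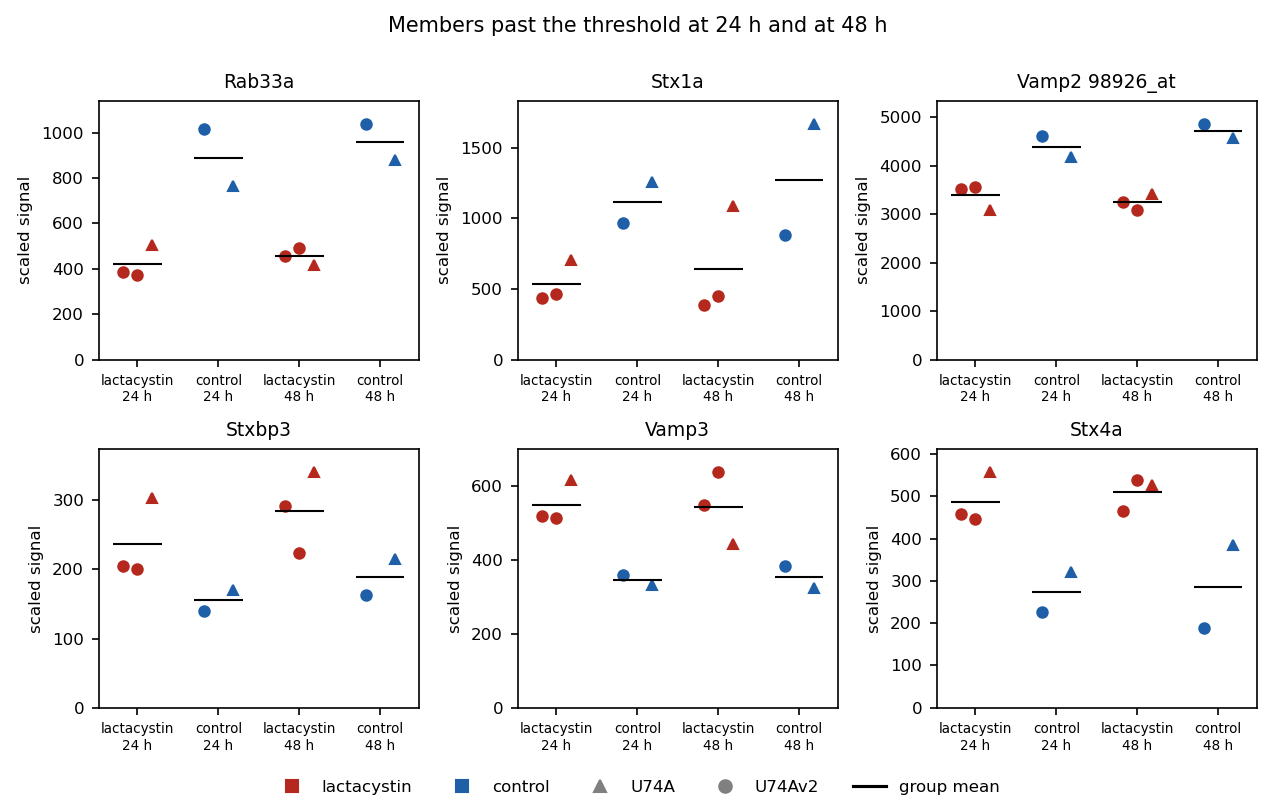
Scaled signal (y axis, linear from 0) of the 6 members called at both times, with lactacystin left of control at 24 h and at 48 h. Triangles are U74A and circles U74Av2 arrays, and lines are group means not adjusted for design. In the upper row the treated arrays lie below the control of their own design, and in the lower row above it.

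Of 5 tested probe sets of internal syntaxins and syntaxin-binding proteins, 2 rose at 24 h and 1 at 48 h. Of all tested probe sets, 8.20% rose at 24 h and 6.77% at 48 h. Stxbp3, the partner protein of surface syntaxins such as Stx4a, had 303 (U74A), 204 and 200 under lactacystin at 24 h, against 170 (U74A) and 140 in controls. The 48 h arrays had 340 (U74A), 290 and 223 under lactacystin, against 214 (U74A) and 162 in controls. Again the groups did not overlap at either time. Stxbp3 rose by 0.57 ± 0.15 at 24 h (adjusted p = 0.0304) and by 0.58 ± 0.15 at 48 h (adjusted p = 0.0358). The 24 h call was lost with each of the 5 arrays of that time left out (adjusted p of 0.0618 to 0.168), and the 48 h call without lactacystin replicate 2 or 3 at 24 h, lactacystin replicate 1 or 3 at 48 h or either control of 48 h (adjusted p of 0.0581 to 0.177).

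Stx5a, the syntaxin of transport between endoplasmic reticulum and Golgi, had 1160 (U74A), 1310 and 1312 under lactacystin at 24 h, against 823 (U74A) and 818 in controls. In 48 h cultures it had 785 (U74A), 894 and 937 under lactacystin, against 796 (U74A) and 694 in controls, so the 24 h groups were well apart and the 48 h groups overlapped. Stx5a rose by 0.59 ± 0.12 at 24 h (adjusted p = 0.00844) and changed by 0.21 ± 0.12 at 48 h (adjusted p = 0.337). The 24 h call ended without control replicate 2 of 24 h (0.54, adjusted p = 0.114). Stx6, Stx8 and Stxbp2 (101398_at), which act at Golgi, endosomes and secretory granules, changed by -0.11 to 0.30 and did not pass at either time.

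The promoters of the members that moved at both times are shown because these genes fell into a lower and a higher group. RefSeq sequence of build GRCm38.p6 was matched for 49 of the 57 member genes and for 4 of the 6 called at both times. Each run below is the 250 bases before the annotated start, 5′ to 3′ on the gene's strand, with capitals for each GC box, the letters GGGCGG on either strand. Stx1a lies at chr5:135023232-135023481 and Rab33a at chrX:48519035-48519284, both on the plus strand and both lower. Stx4a lies at chr7:127841558-127841807 on the plus strand and Stxbp3 at chr3:108840503-108840752 on the minus strand, both higher.
Stx1a: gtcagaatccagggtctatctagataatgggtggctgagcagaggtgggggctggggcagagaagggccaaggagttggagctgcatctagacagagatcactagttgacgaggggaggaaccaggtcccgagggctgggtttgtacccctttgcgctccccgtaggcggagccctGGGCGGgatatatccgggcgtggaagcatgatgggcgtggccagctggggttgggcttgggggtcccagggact
Rab33a: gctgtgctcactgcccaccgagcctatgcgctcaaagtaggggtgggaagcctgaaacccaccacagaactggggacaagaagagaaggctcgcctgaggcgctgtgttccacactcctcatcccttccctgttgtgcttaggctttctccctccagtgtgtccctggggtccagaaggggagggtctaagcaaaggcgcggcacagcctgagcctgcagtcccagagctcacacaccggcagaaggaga
Stx4a: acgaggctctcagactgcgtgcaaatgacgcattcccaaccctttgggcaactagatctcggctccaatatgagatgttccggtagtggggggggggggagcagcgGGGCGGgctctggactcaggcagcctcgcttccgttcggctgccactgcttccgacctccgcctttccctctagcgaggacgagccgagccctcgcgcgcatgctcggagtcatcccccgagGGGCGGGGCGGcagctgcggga
Stxbp3: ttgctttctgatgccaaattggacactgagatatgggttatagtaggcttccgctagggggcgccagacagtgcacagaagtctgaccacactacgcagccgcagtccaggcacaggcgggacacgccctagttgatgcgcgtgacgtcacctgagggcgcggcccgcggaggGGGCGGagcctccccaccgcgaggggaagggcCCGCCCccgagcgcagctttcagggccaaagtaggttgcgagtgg
The GC box occurred 1 time before Stx1a, 3 times before Stx4a (2 of them overlapping by 1 base) and 2 times before Stxbp3, and the Rab33a window held 0 matches. It was present in 32 of the 49 member promoters (65.3%), against 32.9% of the 27025 promoters of the table. The median GC content was 61.2% for the members and 52.0% for all promoters. The promoters of the table were not limited to genes on the arrays, so the members were not compared with other array genes. The cyclic AMP response letters TGACGTCA were found before Stxbp3 only among these 4 genes, and in 2.04% of member promoters and 1.62% of all. Letters of the antioxidant response element (TGACNNNGC) and of the heat shock element (GAANNTTC) were in none of the 4 windows. They were in 6.12% and 8.16% of member promoters, against 10.1% and 6.78% of all. Both strands were searched, and no capitals mark these 3 motifs.

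Synaptotagmins were lower or did not pass. At 24 h 2 of 7 tested probe sets fell and at 48 h 0 passed, against 6.66% and 3.57% of all tested probe sets lower. Syt1, the calcium sensor of fast release, had 830 (U74A), 106 and 76.3 under lactacystin at 24 h, against 2346 (U74A) and 369 in controls. By 48 h its arrays had 2655 (U74A), 50.4 and 160 under lactacystin, against 2535 (U74A) and 121 in controls. At 24 h each treated array lay below the control of its design, and at 48 h the arrays were mixed. Syt1 fell by 1.48 ± 0.43 at 24 h (adjusted p = 0.0379) and changed by -0.26 ± 0.43 at 48 h (adjusted p = 0.769). Its signal was 3.63 log2 units higher on U74A than on U74Av2. The 24 h call ended without control replicate 2 (-0.85, adjusted p = 0.473), lactacystin replicate 1 (-1.12, adjusted p = 0.174) or lactacystin replicate 3 (adjusted p = 0.0681), all of 24 h.

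Syt5, a calcium sensor of dense-core vesicles, had 1527 (U74A), 1372 and 1389 under lactacystin at 24 h, against 1653 (U74A) and 2587 in controls. At 48 h it had 1522 (U74A), 1590 and 1631 under lactacystin, against 1623 (U74A) and 2454 in controls. The U74Av2 control was far above the treated arrays at both times, and the U74A control was close to them. Syt5 fell by 0.57 ± 0.17 at 24 h (adjusted p = 0.0414), and its change of -0.37 ± 0.17 at 48 h did not pass (adjusted p = 0.191). The 24 h change was -0.30 with the U74Av2 control of that time (control replicate 2) left out (adjusted p = 0.496), and the call also ended without lactacystin replicate 2 or 3 at 24 h (adjusted p = 0.120 and 0.116) or lactacystin replicate 1 at 48 h (adjusted p = 0.0521). Syt11, a relative that does not bind calcium, changed by -0.49 ± 0.20 and -0.29 ± 0.20 (adjusted p = 0.136 and 0.420). Syt2, Syt3 and Sytl4 changed by -0.44 to 0.47 in the separate 24 h and 48 h comparisons and did not pass in either.

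Both complexins were lower in the treated cultures on average. Cplx2, the complexin of many excitatory terminals, had 493 (U74A), 743 and 772 under lactacystin at 24 h, against 683 (U74A) and 846 in controls. After 48 h it had 470 (U74A), 754 and 509 under lactacystin, against 759 (U74A) and 927 in controls. The 48 h groups did not overlap, although the highest treated array was close to the U74A control. Cplx2 fell by 0.61 ± 0.16 at 48 h (adjusted p = 0.0325), and its change of -0.27 ± 0.16 at 24 h did not pass (adjusted p = 0.290). The call ended without lactacystin replicate 2 at 24 h (adjusted p = 0.0523), lactacystin replicate 2 or 3 at 48 h (adjusted p = 0.0711 and 0.0668) or control replicate 1 or 2 at 48 h (adjusted p = 0.186 and 0.141).

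Cplx1 had 943 (U74A), 254 and 280 under lactacystin at 24 h, against 1369 (U74A) and 547 in controls. The 48 h arrays had 1007 (U74A), 88.9 and 204 under lactacystin, against 1274 (U74A) and 357 in controls. Within each design all treated arrays were below the control at both times. The changes of -0.71 ± 0.30 and -0.89 ± 0.30 did not pass at either time (adjusted p = 0.141 and 0.0855), and over both times the fall of 0.80 ± 0.21 did (adjusted p = 0.0204). That call ended without lactacystin replicate 1 or control replicate 2 at 24 h (adjusted p = 0.0642 and 0.179) or control replicate 1 or 2 at 48 h (adjusted p = 0.0537 and 0.104).

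Snap91, the neuronal clathrin adaptor also known as AP180, which retrieves vesicle membrane after fusion, had 1331 (U74A), 1087 and 1084 under lactacystin at 24 h, against 2129 (U74A) and 1576 in controls. In 48 h cultures it had 1589 (U74A), 1146 and 1263 under lactacystin, against 1684 (U74A) and 1670 in controls. The treated arrays were below all controls at both times, more widely at 24 h. Snap91 fell by 0.59 ± 0.12 at 24 h (adjusted p = 0.00688), and the change of -0.29 ± 0.12 at 48 h did not pass (adjusted p = 0.153). The 24 h call ended without control replicate 1 of 24 h (adjusted p = 0.0650). Syngr1, a vesicle membrane protein, changed by 0.50 ± 0.21 at 24 h and 0.36 ± 0.21 at 48 h, neither past the threshold (adjusted p = 0.146 and 0.335).

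Of the Rab GTPases measured on both designs, Rab33a was called at both times and Rab31 at 48 h. Rab33a, which serves transport from the Golgi and into growing axons, had 507 (U74A), 386 and 374 under lactacystin at 24 h, against 763 (U74A) and 1017 in controls. By 48 h its arrays had 416 (U74A), 456 and 493 under lactacystin, against 881 (U74A) and 1037 in controls. No treated array reached a control at either time. Rab33a fell by 1.03 ± 0.17 at 24 h (adjusted p = 0.00216) and by 1.04 ± 0.17 at 48 h (adjusted p = 0.00325). Leaving out the U74Av2 control of the same time ended each call (control replicate 2 of 24 h, adjusted p = 0.0704, and control replicate 2 of 48 h, adjusted p = 0.0699).

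Rab31, which directs vesicles between the trans-Golgi network and endosomes, had 848 (U74A), 733 and 757 under lactacystin at 24 h, against 713 (U74A) and 740 in controls. At 48 h it had 1204 (U74A), 1561 and 1462 under lactacystin, against 703 (U74A) and 792 in controls. The 24 h groups overlapped and the 48 h groups were far apart. Rab31 (96811_at) changed by 0.08 ± 0.13 at 24 h (95% interval -0.21 to 0.37, adjusted p = 0.733) and rose by 0.87 ± 0.13 at 48 h (adjusted p = 0.00238). The 48 h call passed under all 21 alternatives tried, the 10 that left out an array included, with adjusted p up to 0.0376. Its probe set 161380_f_at, on U74Av2 only, had 339 and 406 under lactacystin at 48 h, against 251 in the control, and 247 and 276 at 24 h, against 329, with no change past the threshold.

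Rab33b, a Golgi Rab, changed by -0.32 ± 0.18 at 24 h and 0.40 ± 0.18 at 48 h on 103062_at, and by -0.15 ± 0.18 and 0.00 ± 0.18 on 97058_f_at. Rab35, an endosomal recycling Rab, changed by -0.14 ± 0.18 and -0.41 ± 0.18, with a signal 1.41 log2 units lower on U74A. Of the vesicle Rab3 group, Rab3d had 415 (U74A), 326 and 330 under lactacystin at 24 h, against 339 (U74A) and 300 in controls. After 48 h it had 293 (U74A), 163 and 199 under lactacystin, against 392 (U74A) and 279 in controls. It changed by 0.21 ± 0.15 at 24 h (adjusted p = 0.387) and by -0.50 ± 0.15 at 48 h (adjusted p = 0.0554). Rab3il1 and Rab3ip (95539_at), which load nucleotide onto Rab8 and Rab3 proteins, changed by -0.28 to -0.17 and did not pass.

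The disassembly genes were not called at either time. Napa, the general SNAP adaptor of Nsf, had 1525 (U74A), 1830 and 2059 under lactacystin at 24 h, against 1358 (U74A) and 1442 in controls. The 48 h arrays had 1655 (U74A), 1487 and 1011 under lactacystin, against 1421 (U74A) and 1433 in controls. Napa changed by 0.35 ± 0.19 (adjusted p = 0.244) and -0.07 ± 0.19 (adjusted p = 0.869). Nsf, the ATPase itself, changed by -0.15 ± 0.17 and -0.16 ± 0.17.

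Of the GABA genes, the vesicle transporter was lower at 48 h and the synthetic enzymes were not called. Slc32a1, which loads GABA and glycine into vesicles, had 1594 (U74A), 871 and 814 under lactacystin at 24 h, against 1865 (U74A) and 1401 in controls. In 48 h cultures it had 1549 (U74A), 485 and 497 under lactacystin, against 1846 (U74A) and 1599 in controls. All treated arrays of 48 h lay below both controls, but the U74A array came close to them. Slc32a1 fell by 1.07 ± 0.25 at 48 h (adjusted p = 0.0189), and the change of -0.48 ± 0.25 at 24 h did not pass (adjusted p = 0.224). At 48 h the change was -0.25 within U74A and -1.64 within U74Av2, and the call ended without control replicate 2 (-0.64, adjusted p = 0.318), lactacystin replicate 1 (adjusted p = 0.0563) or lactacystin replicate 2 (adjusted p = 0.05004).

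Gad1, the main enzyme of GABA synthesis, had 2893 (U74A), 1774 and 1683 under lactacystin at 24 h, against 3577 (U74A) and 1883 in controls. By 48 h its arrays had 3330 (U74A), 1641 and 1475 under lactacystin, against 3194 (U74A) and 1985 in controls. The designs differed more than the groups, and Gad1 changed by -0.19 ± 0.12 (95% interval -0.45 to 0.07) and -0.18 ± 0.12 (95% interval -0.44 to 0.08). Gad2, with a signal near the filter, changed by 0.08 ± 0.35 and 0.15 ± 0.35.

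The change could also be taken within each array design, where each comparison rests on 1 control array. A call comes from a fit that combines these same changes, and all 1038 probe sets called at 24 h and all 722 called at 48 h had 1 sign in both designs, so the equal signs of the called members add nothing to their calls. Over all tested members the signs were equal for 37 of 45 at 24 h (82.2%, against 69.1% of all tested probe sets) and for 32 at 48 h (71.1%, against 66.3%). With the design covariate left out, the calls were Rab33a and Stx5a at 24 h and Rab33a and Rab31 at 48 h. Level differences between the designs were more frequent among members: 6 of 45 (13.3%, against 4.91% of all tested) were over 2-fold apart, namely Syt1, Syt11, Cplx1, Gad2, Rab35 and Vamp2 (98925_at).

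**Figure D3:**
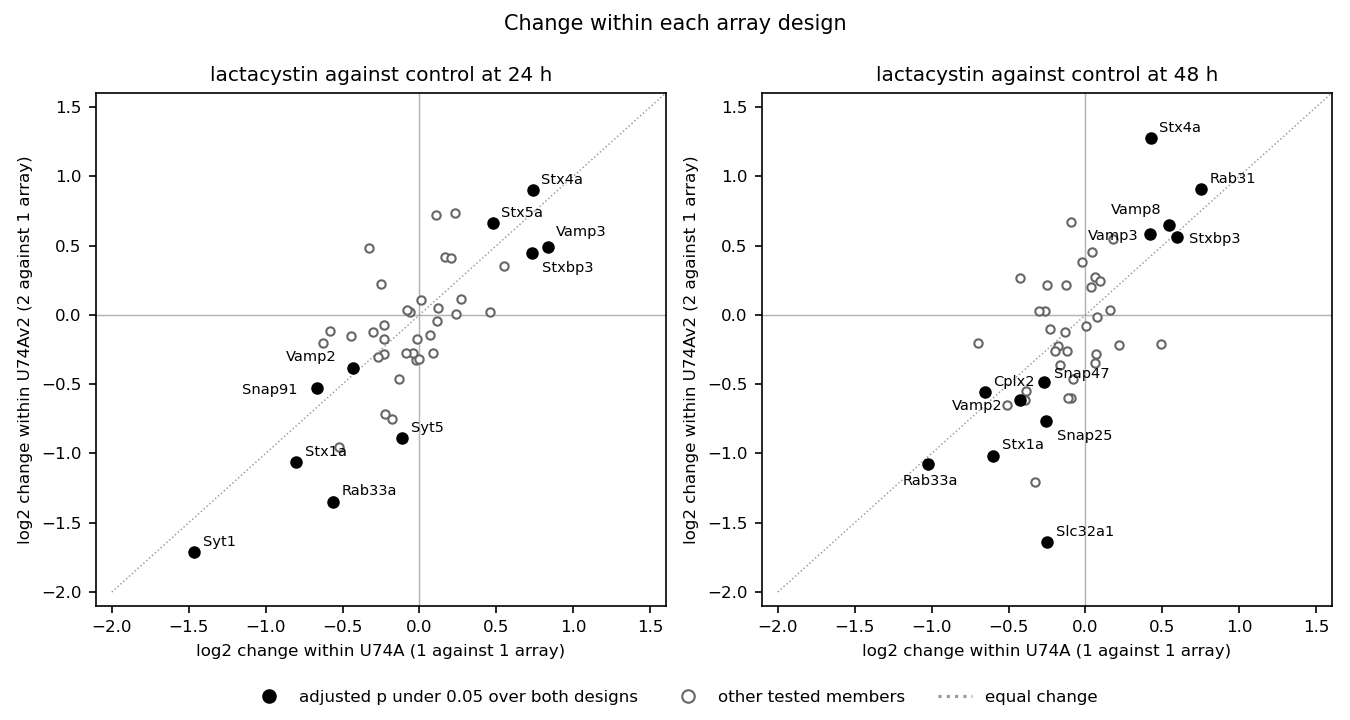
Log2 change within U74Av2 (y axis) against that within U74A (x axis) of the 45 tested members, lactacystin against control at 24 h (left) and 48 h (right). Filled, named points have an adjusted p under 0.05 in the fit over both designs. Slc32a1 at 48 h, at -0.25 within U74A and -1.64 within U74Av2, is far from the line of equal change.

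The lactacystin effect at 48 h was compared with that at 24 h to ask whether the members' changes grew or faded. None of the 45 members passed that test in limma, and 1.23% of all tested probe sets passed. At an unadjusted p under 0.05 there were 7 of the 45 members and 1132 of all 6984 tested probe sets, a similar share. Rab31 (96811_at) had the smallest p, with an effect 0.79 ± 0.19 log2 units higher at 48 h (adjusted p = 0.0687). It was followed by Napb (100458_at) at -0.75 ± 0.20 (adjusted p = 0.104), Rab3d at -0.71 ± 0.21 (adjusted p = 0.128), Rab33b (103062_at) at 0.71 ± 0.25 (adjusted p = 0.182) and Snap25 at -0.55 ± 0.21 (adjusted p = 0.229). Without lactacystin replicate 1 of 24 h Rab31 passed (adjusted p = 0.0212), and without lactacystin replicate 3 of 48 h Rab31 and Napb passed (adjusted p = 0.0480 and 0.0482). With median scaling Napb and Rab3d passed (adjusted p = 0.0380 and 0.0498). So a call at 1 time only, as for Snap25, Stx5a, Syt1 or Slc32a1, was not shown to differ between the times.

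Between the lactacystin groups themselves, 5 of 45 members differed at 48 h from 24 h (11.1%, against 11.6% of all tested). Rab31 rose by 0.82 ± 0.12 (adjusted p = 0.00122). The other 4 fell: Rab3d by 0.66 ± 0.13 (adjusted p = 0.00911), Stx5a by 0.52 ± 0.11 (adjusted p = 0.0112), and Napb, the brain form of the SNAP adaptor, by 0.48 ± 0.13 on 100458_at and 0.65 ± 0.14 on 92952_f_at (adjusted p = 0.0349 and 0.0149). On 100458_at Napb had 618 (U74A), 407 and 408 under lactacystin at 48 h and 684 (U74A), 629 and 683 under lactacystin at 24 h. Its controls had 672 (U74A) and 634 at 48 h, and 590 (U74A) and 486 at 24 h. On this probe set the treated cultures thus lay above the controls at 24 h and below them at 48 h. The probe set 92952_f_at did not cross in this way. Its log2 change against control was -0.16 at 24 h and was negative at 48 h too, neither past the threshold. The calls of Rab31 and Rab3d held without each array in turn.

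Those of the others did not. The Stx5a call between the times ended without lactacystin replicate 2 or 3 of 24 h or replicate 3 of 48 h (adjusted p of 0.0529 to 0.0607). The Napb call on 100458_at ended without lactacystin replicate 2 or 3 of 24 h or replicate 1 or 2 of 48 h (adjusted p of 0.0975 to 0.147), and that on 92952_f_at without replicate 2 of either time (adjusted p = 0.0713 at 24 h and 0.0504 at 48 h). Between the controls of 48 h and 24 h no member passed in limma, with 3 at an unadjusted p under 0.05 (Snap25, Sytl4 and Rab35), and 0% of all tested probe sets passed, with 391 at an unadjusted p under 0.05.

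**Figure D4:**
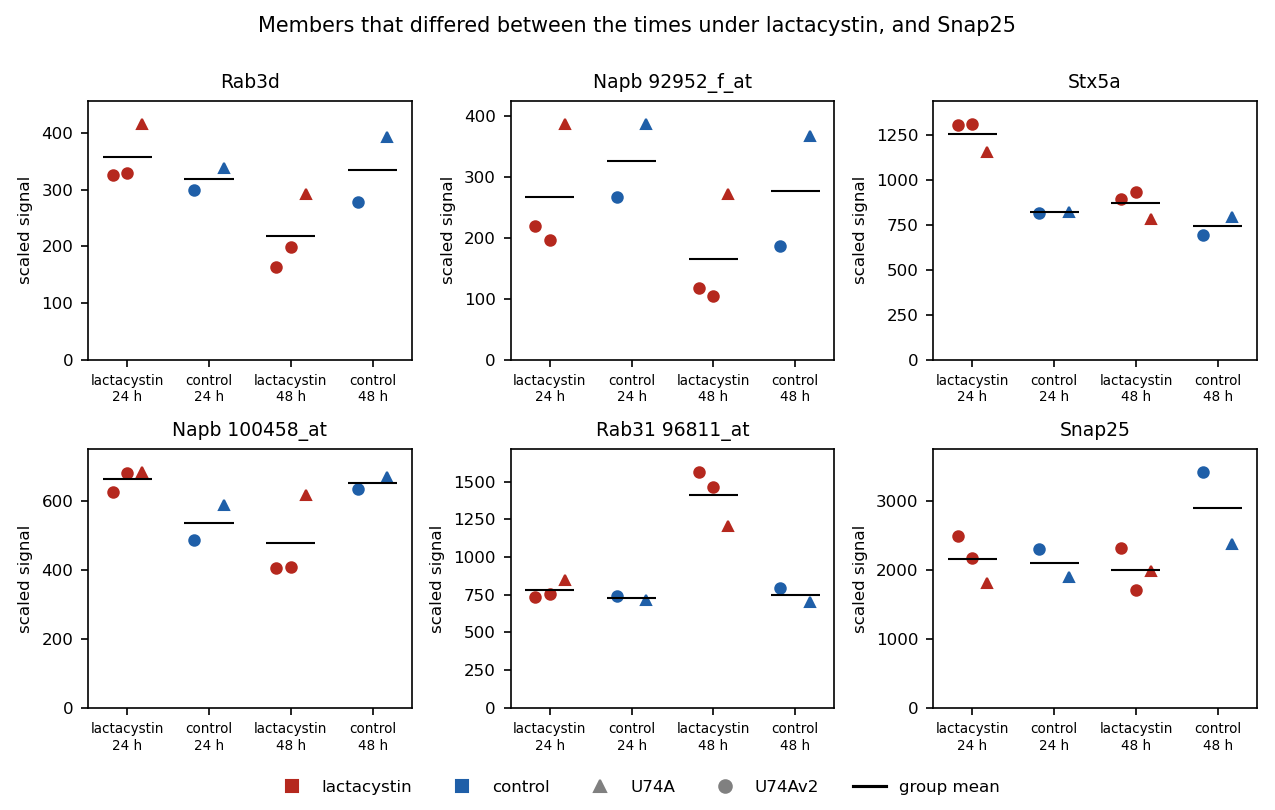
Scaled signal (y axis, linear from 0) of the 5 member probe sets that differed between 48 h and 24 h under lactacystin, and of Snap25, with lactacystin left of control at each time. Triangles are U74A and circles U74Av2 arrays, and lines are group means not adjusted for design. Rab31 is high only in the 3 arrays of lactacystin at 48 h, and Stx5a is high in those at 24 h.

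On U74Av2 only, 15 member probe sets had values on 6 arrays, 2 under lactacystin and 1 control at each time. Of these 12 entered a fit over 8695 probe sets with 2 residual degrees of freedom, in which 7.56% of probe sets passed at 24 h and 4.99% at 48 h. The lone control of each time is assumed there to vary like the treated arrays. Rab3b, a vesicle Rab3 GTPase, was the only one to pass, at both times. It had 214 and 193 under lactacystin at 24 h, against 448 in the control, and 230 and 250 under lactacystin at 48 h, against 634. Rab3b fell by 1.03 ± 0.16 at 24 h (adjusted p = 0.0202) and by 1.29 ± 0.16 at 48 h (adjusted p = 0.0168). Its 24 h call ended without lactacystin replicate 2 or 3 of 24 h (adjusted p = 0.0629 and 0.0829), and with eBayes without trend the adjusted p was 0.0514 at 24 h and 0.0501 at 48 h.

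Rab3a (160524_at), the most abundant Rab3 of brain, had 192 and 280 under lactacystin at 24 h, against 97.6 in the control. At 48 h it had 279 and 222 under lactacystin, against 115. It lay above its control at each time, opposite to Rab3b, but its changes of 1.03 ± 0.26 and 0.94 ± 0.26 did not pass (adjusted p = 0.0672 and 0.0966). Syp, the vesicle membrane protein synaptophysin, had 418 and 422 under lactacystin at 24 h, against 559, and 355 and 372 under lactacystin at 48 h, against 588. Its changes of -0.39 ± 0.14 and -0.65 ± 0.14 did not pass (adjusted p = 0.145 and 0.0547).

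Syt4, a synaptotagmin of dense-core vesicles, had 609 and 629 under lactacystin at 24 h, against 962, and 608 and 479 at 48 h, against 678, with adjusted p of 0.0806 and 0.328. Stx12, an endosomal syntaxin, had 3076 and 3446 under lactacystin at 24 h, against 3669, and 3472 and 3161 at 48 h, against 3799. Stx7, another endosomal syntaxin, had 3153 and 3207 under lactacystin at 24 h, against 4240, and 3531 and 2952 at 48 h, against 4416 (adjusted p = 0.104 and 0.101). Syn2, a synapsin that tethers vesicles, changed by -0.10 ± 0.15 and 0.13 ± 0.15.

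With the times averaged, 4 of the 12 passed on U74Av2, where 12.8% of all probe sets did. Rab3b fell by 1.16 ± 0.11 (adjusted p = 0.00359), Syp by 0.52 ± 0.10 (adjusted p = 0.0218) and Stx7 by 0.43 ± 0.09 (adjusted p = 0.0294), and Rab3a rose by 0.98 ± 0.18 (adjusted p = 0.0212). Rab3b passed with any lactacystin array left out, and so did Rab3a. The Syp call ended without lactacystin replicate 2 or 3 of 24 h (adjusted p = 0.0866 and 0.0828), as did that of Stx7 (adjusted p = 0.0966 and 0.0871), and with no filter on low signal Rab3a and Stx7 did not pass (adjusted p = 0.0558 and 0.0597). A control array could not be left out, since each time has 1 on this design.

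**Figure D5:**
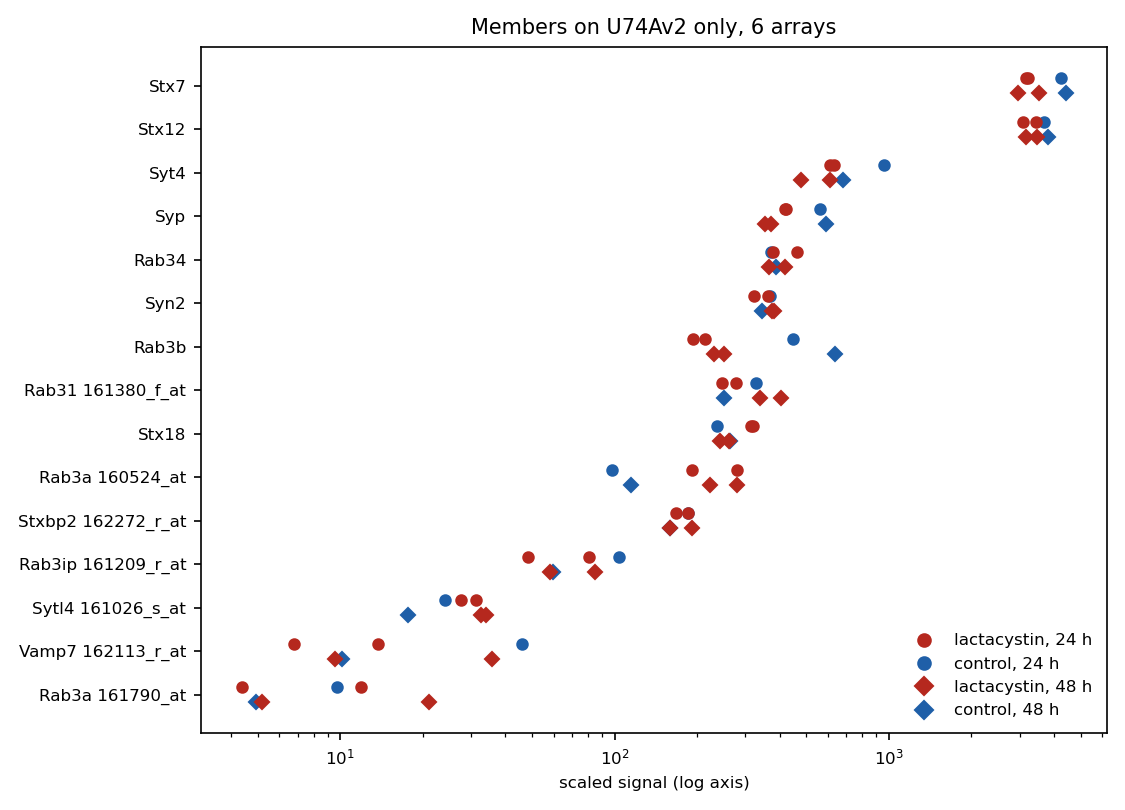
Scaled signal (x axis, log scale) of the 15 member probe sets present on U74Av2 only, 1 row each, on 6 arrays. Rab3b lies at 193 to 250 under lactacystin, below its controls at 448 and 634, and Rab3a (160524_at) lies above its controls.

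The 13 members of both designs that fell under the signal filter were 2 probe sets each of Stx3 and Vamp1, and Vamp5, Vamp8 (93305_f_at), Syt2 (101183_at), Syt6, Syt7, Syt8, Syt9, Syt10 and Syt17. Their arrays ran from 1.55 to 131, and no test was made.

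Genes of the same terminal that the symbol rule did not take were read for comparison from a list of 78, of which 40 were tested. At 24 h 4 rose and 6 fell, against 8.20% higher and 6.66% lower of all tested probe sets. At 48 h 1 rose and 6 fell, against 6.77% higher and 3.57% lower of all. The medians of the list were -0.11 and -0.17. Those that fell at both times were Ppfia4, a liprin scaffold of the active zone (-1.15 ± 0.21 at 24 h and -0.80 ± 0.21 at 48 h), Apba2, a Munc18-binding adaptor (-0.54 ± 0.11 and -0.50 ± 0.11), and Dnm1, the dynamin that pinches off vesicles (-0.45 ± 0.11 and -0.51 ± 0.11). Ppfia4 had a mean signal of 78.6 over all arrays, near the filter cut of 54.8. Lin7b, a scaffold protein, fell by 1.13 ± 0.18 at 48 h (adjusted p = 0.00280), and Cadps, a priming factor of dense-core vesicles, by 0.56 ± 0.13 (adjusted p = 0.0189). Of the genes of clathrin endocytosis and recycling, 4 of 14 fell at 24 h (Dnm1, Ap2a1, Ap2b1 and Pacsin1) and Cltb, a clathrin light chain, rose by 0.42 ± 0.10, against 6.66% of all tested probe sets lower. At 48 h 2 of the 14 fell, Dnm1 and Ap2m1, a subunit of the clathrin adaptor AP-2 (-0.34 ± 0.09, adjusted p = 0.0341), against 3.57% of all lower. Of the other tested AP-2 subunits, Ap2a2 had a 48 h change of -0.26 ± 0.12, Ap2a1 of -0.06 ± 0.23 and Ap2b1 of 0.05 ± 0.17, none past the threshold. Syngr2, the synaptogyrin of non-neuronal cells, rose by 0.68 ± 0.19 at 24 h and 0.99 ± 0.19 at 48 h (adjusted p = 0.0367 and 0.00879). Of 10 subunits of the vesicle proton pump, Atp6v1h rose at 24 h (0.69 ± 0.13, adjusted p = 0.00614) and was the only gene of the list whose effect differed between the times (-0.96 ± 0.19, adjusted p = 0.0331).

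Markers of cell types moved beside these changes. Of 11 tested neuron markers, 4 fell at 24 h (Dcx, Elavl3, Stmn2 and Gap43) and 2 at 48 h (Stmn2 and Gap43), with medians of -0.38 and -0.40. Their summed signal was 26229 to 31104 under lactacystin at 24 h, against 35043 to 39741 in controls, and 28693 to 33479 at 48 h, against 40156 to 40951. Of 7 tested astrocyte markers 1 rose and 2 fell at 24 h and 3 rose at 48 h, with sums of 11486 to 16406 under lactacystin at 24 h, against 12058 to 18050, and 15542 to 18941 at 48 h, against 12359 to 18509. Of 7 microglia markers 1 rose at 24 h and 3 at 48 h, with sums of 847 to 1626 at 24 h, against 795 to 1077, and 1130 to 1982 at 48 h, against 656 to 1371. Of 6 fibroblast and mural markers 1 rose at 24 h and 2 at 48 h, with sums of 1153 to 2492 at 24 h, against 1278 to 1295, and 2070 to 3829 at 48 h, against 1195 to 1269. The sums take every listed gene present on both designs, those under the filter included. They cover 11 neuron, 8 astrocyte, 11 microglia and 7 fibroblast and mural genes. Of all tested probe sets, 8.20% rose and 6.66% fell at 24 h, and 6.77% rose and 3.57% fell at 48 h. No tested marker of oligodendrocytes, endothelium or red cells passed at either time. The part of these shifts in the members' changes was not tested, and in bulk RNA fewer cells of a type and less RNA per cell cannot be told apart.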

How the data were processed

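RNA of 10 samples was measured on 10 arrays. The deposited intensity values, 1 summary signal per probe set from MAS5 per the submitters' processing notes (its version is not given in these sources), came as 2 tables by array design, with 10043 probe sets for U74A and 12488 for U74Av2. Scaling set the 2% trimmed mean of each array to 500 over the 9977 probe sets that both designs hold (66 controls left out). Values were tested as log2(signal + 32), with 32 as the pseudocount, so fold changes of low genes are understated. The 30% of probe sets with the lowest mean over all arrays (under 54.8) were left out and 6984 tested. limma 3.58.1 in R 4.3.3 fitted the 4 groups with array design as covariate (5 residual degrees of freedom, eBayes with trend, two-sided, Benjamini-Hochberg over all tested). Every p of a gene is from this fit or, for members on U74Av2 only, from the same fit on those 6 arrays (8695 probe sets). Tests of the fit on simulated data recovered known changes. Their settings are not given here, and they do not show how well calls from so few controls hold.

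Symbols were updated by Entrez identifier through RefSeq (GRCm38.p6) for all 73 members. No member came from a probe set with several symbols. Array values and changes are given for members called in either treatment comparison, their average or their difference, for the member with the highest signal in each role, and for the 5 smallest p where none passed. The comparison list was read on the highest probe set per gene, and its endocytosis and proton pump subsets were grouped afterwards. Members, roles and lists were chosen with earlier results of these data known. Replicate numbers were not used as a block, since no label says that a number marks a shared culture. In deviations from the group means, 2 of 13 same-numbered pairs of arrays correlated over 0.1, which cannot show whether numbers pair the arrays. Replicates of a group correlated at 0.937 to 0.990, and the number of arrays limits the precision. Detection calls were not used here.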

Additional observations from a re-analysis of the deposited data

How the results depend on the processing

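No call of a member changed sign under any alternative, but many ended. The counts of called members at 24 h, 48 h, over both times, for the difference between times and for 48 h against 24 h under lactacystin were 10, 12, 15, 0 and 5. Without the design covariate they were 2, 2, 7, 0 and 1, and with the replicate block beside it 9, 9, 14, 0 and 5. Whether the replicate numbers pair the arrays is not known (13 same-numbered pairs correlated at -0.41 to 0.27), and the block only tests the numbering. The 2 controls of a group deviate from their mean by equal and opposite amounts, so these correlations cannot decide it. At 48 h the count was 6 with no filter on low signal, 7 with eBayes without trend and 6 on the 48 h arrays alone, and median scaling gave 2 calls for the difference between times. Leaving out 1 array at a time gave 1 to 12 members at 24 h, 1 to 13 at 48 h, 8 to 19 over both times, 0 to 2 for the difference and 2 to 5 under lactacystin. The lowest counts at 24 h and at 48 h came without control replicate 2 of that time (1 each), and without control replicate 1 they were 6 and 4. In controls 0 members passed under each of these settings. The shares of all tested probe sets called under each alternative are not given here. These counts therefore do not tell whether members lost calls more often than other probe sets. For members on U74Av2 only, alternatives chosen after seeing the data gave 0 calls at either time with eBayes without trend and, at 48 h, 3 with median scaling and 2 with the lowest 50% left out. Leaving out 1 lactacystin array gave 0 to 4 calls at 24 h and 1 to 4 at 48 h. With 2 controls a group, 1 per design, each design's comparison rests on a single control array.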
